A study of Mus musculus with 14 samples.

Results

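The insulin-like growth factor (IGF) system was followed across sorted cells of the adult mouse brain. Its members were 10 genes, the ligands Igf1 and Igf2, the receptors Igf1r and Igf2r, the binding proteins Igfbp2, Igfbp3, Igfbp4, Igfbp5 and Igfbp7, and the binding-protein-like gene Igfbpl1. They were taken as every probe set, that is every group of short array probes designed for 1 transcript, whose platform annotation named 1 of these genes and no other. These were 10 of 18193 genes with a probe set of their own, and 29 probe sets of 45037 tested; 9 of the 10 genes had more than 1.

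All cells came from hGFAP eGFP mice aged 8 weeks, in which the human promoter of the glial gene GFAP drives green fluorescent protein (GFP). SEZ_GFPprom cells of the subependymal zone, the neurogenic layer beside the lateral ventricle, were sorted as positive for GFP and the surface protein prominin (4 arrays), SEZ_GFP cells for GFP, SEZ_Prom cells for prominin and SEZ_CD24 cells for CD24 (2 arrays each). DIEC_GFP cells were sorted for GFP from the diencephalon, a deeper region without the subependymal zone (4 arrays). By label, the subependymal cells sorted for GFP, for prominin or for both are neural stem cells, SEZ_CD24 cells are ependymal and DIEC_GFP cells are astrocytes. Arrays within a group are labelled biological replicates, but nothing is said of the animals behind them. The p-values therefore measure only the spread among arrays, which may be technical, and the number of arrays limits the precision.

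Igf1 and Igf2 are secreted growth factors that act mainly through the receptor tyrosine kinase Igf1r, which relays to adaptor proteins and the PI3K and AKT kinases. Igf2r carries no kinase; it takes Igf2 to the lysosome for degradation. The binding proteins hold the ligands outside the cell and can limit or prolong their action, and in the adult brain the ligands are known to act on neural stem cells and on the survival of new neurons.

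Values are intensities on a log2 scale, so that a difference of 1 is a doubling. Between 25.4% and 25.7% of an array's probe sets had an intensity no higher than 10, about 3.32 on the log2 scale, where whole-number rounding leaves few steps. Arrays correlated at r = 0.942 to 0.979 within groups and at r = 0.845 to 0.952 between groups. The label of SEZ_CD24 did not match its markers: the mean over 11 ependymal markers was 9.87 to 10.62 on the SEZ_GFPprom arrays and 4.89 to 5.51 on the SEZ_CD24 arrays, against 8.18 to 8.80 on the DIEC_GFP arrays. By group mean, neuroblast markers (10.80 to 11.67) and microglia markers (8.36 to 9.66) were at their highest in SEZ_CD24, which is therefore called by its sort alone. The neuroblast range overlapped that of SEZ_GFP (10.790 to 10.925), and ependymal markers were highest in SEZ_GFPprom, though both are labelled neural stem cells. All groups are therefore named by their sort and not by their label. SEZ_Prom arrays had oligodendrocyte markers at 11.24 to 11.33, close to DIEC_GFP at 11.01 to 11.72. In sorted bulk samples, more cells of a type and more RNA per cell cannot be told apart.

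Differences among the sorts were tested with limma over all probe sets, with Benjamini-Hochberg adjustment and a threshold of 0.05. In the F test over the 5 groups 7 of the 29 member probe sets passed (24.1%), against 16.9% of all probe sets. They belonged to 5 genes, namely Igfbpl1 (both probe sets), Igfbp5, Igf2, Igfbp2 and Igf1r (2 of 5 probe sets). With the SEZ_CD24 arrays left out 5 passed, with no share over all probe sets counted in that setting. Igf1, Igf2r, Igfbp3, Igfbp4 and Igfbp7 had no probe set past this test. Pairs of groups also lay apart, with no overlap, for many of all probe sets. For SEZ_GFPprom the share was 15.4% against DIEC_GFP, 21.5% against SEZ_GFP, 25.6% against SEZ_Prom and 29.3% against SEZ_CD24. Against DIEC_GFP it was 26.0% for SEZ_GFP, 21.8% for SEZ_Prom and 25.9% for SEZ_CD24. It was 46.3% for SEZ_GFP and SEZ_Prom, 35.8% for SEZ_GFP and SEZ_CD24 and 42.5% for SEZ_Prom and SEZ_CD24.

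**Figure D1:**
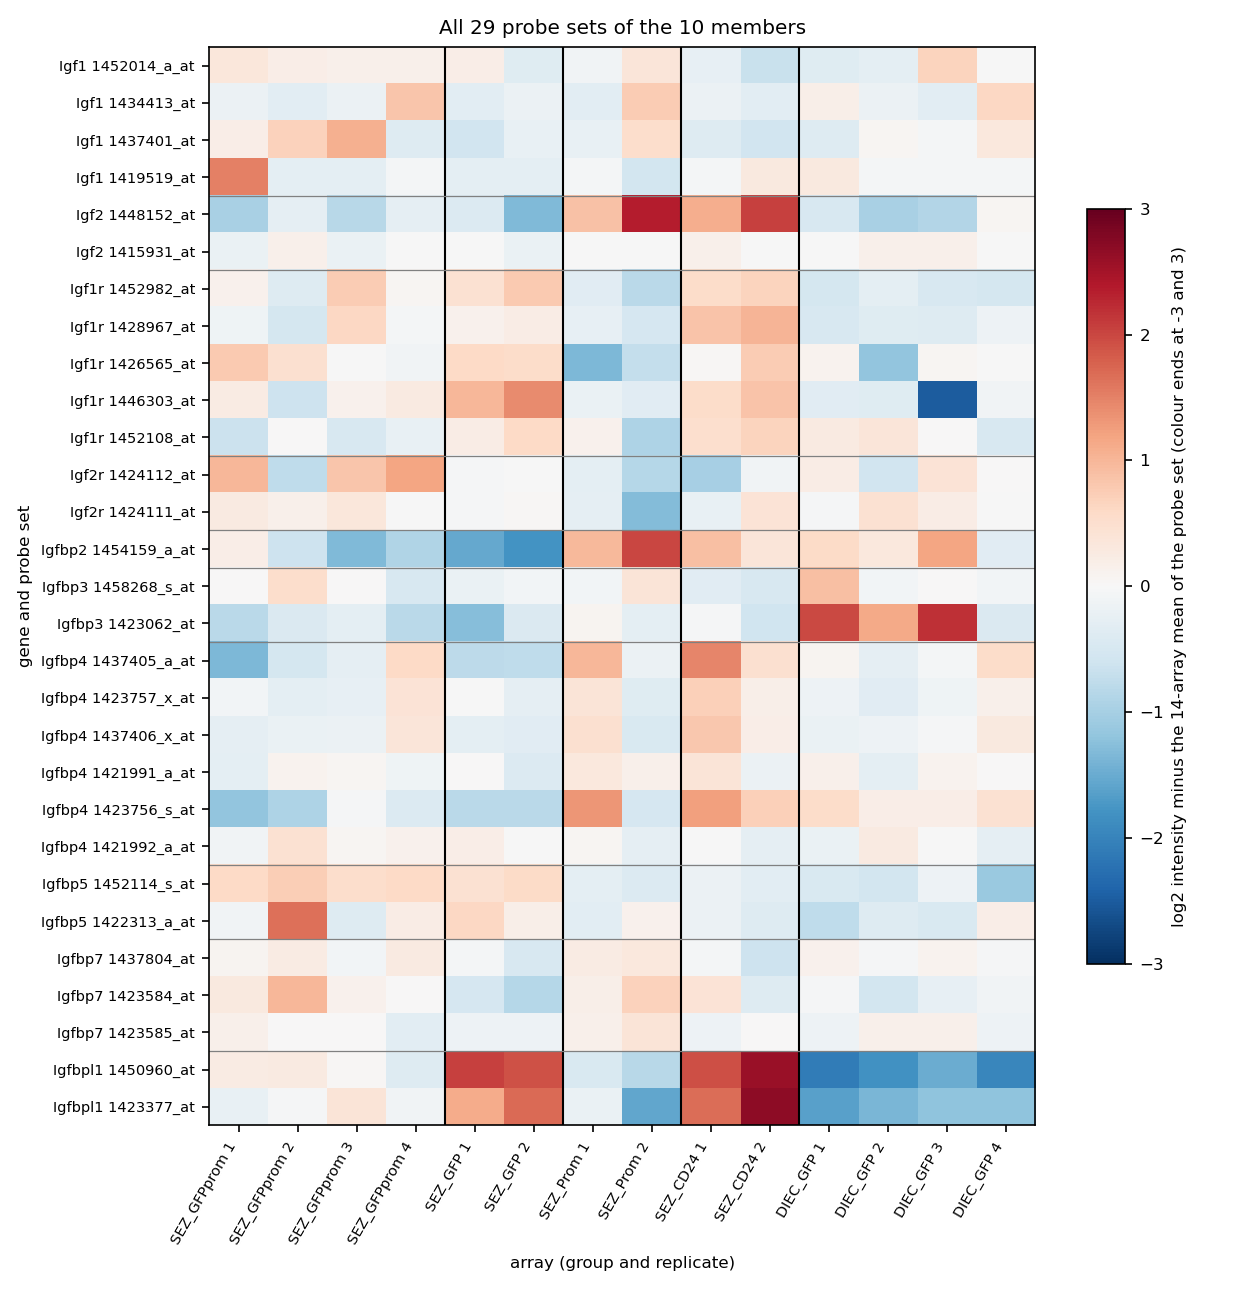
Log2 intensity of each of the 29 member probe sets (rows) minus its own mean over the 14 arrays (columns, by group); red is above that mean, blue below, and colour ends at 3 in either direction. The Igfbpl1 rows are red in SEZ_GFP and SEZ_CD24 and blue in DIEC_GFP, and the Igf2 row 1448152_at is red in SEZ_Prom and SEZ_CD24.

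Of the ligands, Igf2 differed among the sorts and Igf1 had no probe set past the test. Igf2 encodes a growth factor that in the adult mouse brain is known from the choroid plexus and meninges. Probe set 1448152_at read 5.25, 5.95, 5.39 and 5.95 in SEZ_GFPprom and 5.81 and 4.91 in SEZ_GFP. It read 7.12 and 8.59 in SEZ_Prom, 7.31 and 8.28 in SEZ_CD24, and 5.75, 5.25, 5.36 and 6.29 in DIEC_GFP. All 4 arrays of SEZ_Prom and SEZ_CD24 lay above all 10 others, which overlapped among themselves.

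Igf2 was 4.58-fold higher in SEZ_Prom than in DIEC_GFP (log2 difference 2.19, SE 0.46, adjusted p = 0.0252) and 4.39-fold higher in SEZ_CD24 than in DIEC_GFP (2.13, SE 0.46, adjusted p = 0.0126). It was lower in SEZ_GFPprom than in SEZ_Prom (-2.22, adjusted p = 0.0247) and than in SEZ_CD24 (-2.16, adjusted p = 0.0155), and lower in SEZ_GFP than in SEZ_Prom (-2.50, adjusted p = 0.028). SEZ_GFP minus SEZ_CD24, at -2.44 (SE 0.53), missed the threshold (adjusted p = 0.0916). SEZ_GFPprom and DIEC_GFP differed by -0.02 (SE 0.38, adjusted p = 0.99).

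Every one of these Igf2 calls ended when the brighter array of the pair was left out. Without SEZ_CD24 replicate 2 the adjusted p was 0.146 against DIEC_GFP and 0.166 for SEZ_GFPprom minus SEZ_CD24. Without SEZ_Prom replicate 2, and in some cases without another array, the 3 calls with SEZ_Prom had adjusted p values between 0.0528 and 0.256. The other arrays were DIEC_GFP replicates 2 and 3 for SEZ_Prom minus DIEC_GFP, SEZ_GFPprom replicate 1 for SEZ_GFPprom minus SEZ_Prom, and SEZ_GFP replicates 1 and 2 for SEZ_GFP minus SEZ_Prom. The calls with SEZ_Prom also missed the threshold in a fit of the 2 groups alone. With the ratio of 3-prime to 5-prime signal as a covariate, or with the replicate number as a block, 2 of them ended too, SEZ_GFPprom minus SEZ_Prom (up to 0.08) and SEZ_Prom minus DIEC_GFP (up to 0.345), and with intensities under 10 set to 10 SEZ_GFP minus SEZ_Prom ended (0.0507). The size stayed between 1.46 and 2.93 for SEZ_Prom minus DIEC_GFP with any 1 array left out.

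Choroid plexus markers moved with Igf2. For the 10 of 11 listed markers measured, the summed intensity was 469 to 7828 in SEZ_GFPprom, 552 to 9392 in SEZ_GFP, 13489 to 14275 in SEZ_Prom, 9512 to 15505 in SEZ_CD24 and 1259 to 8811 in DIEC_GFP. The bright marker Ttr weighs heavily in most of these sums. The mean log2 intensity of the markers was 4.745 to 5.909 in SEZ_GFPprom, 4.02 to 5.03 in SEZ_GFP and 5.12 to 5.45 in DIEC_GFP. It was 7.30 to 7.61 in SEZ_Prom and 6.35 to 7.27 in SEZ_CD24. In SEZ_Prom minus DIEC_GFP 5 of the 10 were higher and 0 lower, and SEZ_CD24 minus DIEC_GFP gave the same counts, against 5.15% and 14.8% of all genes called in either direction by their brightest probe set. Over the 14 arrays Igf2 and the markers' mean correlated at r = 0.87. Of the defining markers, the transport protein gene Ttr was bright in every sort (6.87 to 13.77 over the arrays) and the potassium channel gene Kcnj13 stood at 8.27 to 9.66 in SEZ_Prom and SEZ_CD24, against 3.81 to 6.79 in the other arrays. The third, the folate receptor gene Folr1, did not separate the sorts in this way: it stood at 5.04 to 7.55 in SEZ_GFPprom, 3.46 and 5.21 in SEZ_GFP, 6.67 and 7.25 in SEZ_Prom, 5.0 and 6.52 in SEZ_CD24 and 5.29 to 5.78 in DIEC_GFP. The part of choroid plexus RNA in the Igf2 difference was not tested. Leptomeningeal markers, the other known source named above, had array means of 3.73 to 4.38, with Col1a1 at 3.32 to 4.32, Lum at 2.81 to 4.09 and Dcn at 4.39 to 6.11, the last highest in DIEC_GFP replicates 1 and 4.

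The other Igf2 probe set, 1415931_at, stood at an intensity of 10 or less on all 14 arrays (2.81 to 3.17) and carried no measurable signal. Igf1, a growth factor made by microglia and some neurons among other brain cells, was dim: its brightest probe set, 1452014_a_at, averaged 4.96 ± 0.09 in SEZ_GFPprom (SD, n = 4), 4.67 ± 0.40 in SEZ_GFP, 4.89 ± 0.34 in SEZ_Prom, 4.31 ± 0.31 in SEZ_CD24 (n = 2 each) and 4.76 ± 0.47 in DIEC_GFP (n = 4). With this probe set SEZ_CD24 (4.09 and 4.52) lay below SEZ_GFPprom (4.91 to 5.09) and SEZ_Prom (4.64 and 5.13). These pairs of groups were apart for 29.3% and 42.5% of all probe sets. The other pairs overlapped. No Igf1 probe set passed in any of the 10 comparisons. By 1452014_a_at, SEZ_CD24, with the highest microglia markers, had the lowest mean. Over the 14 arrays this probe set and microglia markers correlated at r = -0.42. The other Igf1 probe sets, 1434413_at, 1437401_at and 1419519_at, correlated with 1452014_a_at at r = 0.17, 0.44 and -0.03. The part of microglia in the Igf1 values was not tested. At these intensities a difference between sorts may not be detectable.

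Of the receptors, Igf1r was higher in SEZ_GFP and in SEZ_CD24 than in DIEC_GFP, each with 2 of its 5 probe sets. Its brightest, 1452982_at, read 8.87, 8.34, 9.49 and 8.80 in SEZ_GFPprom and 9.19 and 9.51 in SEZ_GFP. It read 8.41 and 7.92 in SEZ_Prom, 9.28 and 9.40 in SEZ_CD24, and 8.22, 8.45, 8.25 and 8.21 in DIEC_GFP. SEZ_GFP and SEZ_CD24 lay wholly above SEZ_Prom and DIEC_GFP, while the SEZ_GFPprom arrays spread over both ranges.

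The difference was 1.07 for SEZ_GFP minus DIEC_GFP (SE 0.27, adjusted p = 0.0323) and 1.06 for SEZ_CD24 minus DIEC_GFP (SE 0.27, adjusted p = 0.027). SEZ_GFPprom minus DIEC_GFP was 0.59 (SE 0.22, adjusted p = 0.104). Without DIEC_GFP replicate 1, 3 or 4, or either array of the sort compared, the first call ended with adjusted p values of 0.0519 to 0.279 and the second with 0.0505 to 0.156. The first also ended with the replicate block and the 3' to 5' covariate (0.0539 to 0.105), and the second with array weights (0.0519).

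A second Igf1r probe set, 1428967_at, correlated with the first at r = 0.86 and was at its highest in SEZ_CD24 (9.52 ± 0.11, SD, n = 2). Its group means were 8.55 ± 0.47 in SEZ_GFPprom (n = 4), 8.75 ± 0.07 in SEZ_GFP and 8.20 ± 0.18 in SEZ_Prom (n = 2 each), and 8.23 ± 0.13 in DIEC_GFP (n = 4). SEZ_GFP minus DIEC_GFP, called with the first probe set, was 0.52 here (SE 0.25, 1.44-fold) and missed the threshold (adjusted p = 0.282). SEZ_CD24 minus DIEC_GFP was 1.29 (SE 0.25, adjusted p = 0.00754), SEZ_Prom minus SEZ_CD24 was -1.31 (adjusted p = 0.0377) and SEZ_GFPprom minus SEZ_CD24 was -0.97 (adjusted p = 0.0357). The SEZ_CD24 minus DIEC_GFP call ended without SEZ_CD24 replicate 2 (adjusted p = 0.0721). The SEZ_Prom minus SEZ_CD24 call ended without any 1 of 8 arrays (0.0529 to 0.189), namely both arrays of SEZ_CD24, SEZ_GFP and SEZ_Prom and SEZ_GFPprom replicates 1 and 4, and under 5 other settings (0.0506 to 0.176). The SEZ_GFPprom minus SEZ_CD24 call ended without any 1 of 7 arrays (0.0511 to 0.207), namely both arrays of SEZ_CD24 and SEZ_GFP and SEZ_GFPprom replicates 1, 2 and 4, and under 3 other settings (0.0513 to 0.159).

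Probe set 1446303_at passed for SEZ_GFP minus DIEC_GFP (2.04, adjusted p = 0.0449), but DIEC_GFP replicate 3 lay far below its group at 3.91. That call ended without any 1 of 12 arrays (0.0506 to 0.302), that is every array but DIEC_GFP replicates 3 and 4, and under 5 other settings, the lowest of them (0.0589) with the SEZ_CD24 arrays left out. The remaining Igf1r probe sets, 1426565_at and 1452108_at, passed in no comparison and correlated with 1452982_at at r = 0.51 and 0.43. Over the 14 arrays 1452982_at correlated with neuroblast markers at r = 0.82 and with oligodendrocyte markers at r = -0.91; the 9 of 10 oligodendrocyte markers measured had a summed intensity of 10136 to 15314 in SEZ_GFPprom, 4745 to 7077 in SEZ_GFP, 34582 to 36397 in SEZ_Prom, 6485 to 11416 in SEZ_CD24 and 32012 to 45237 in DIEC_GFP. The part of these cell types in the Igf1r differences was not tested.

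Igf2r, the clearing receptor for Igf2, passed in no comparison. Probe set 1424112_at averaged 7.61 ± 0.90 in SEZ_GFPprom (SD, n = 4), 7.03 ± 0.02 in SEZ_GFP, 6.48 ± 0.41 in SEZ_Prom, 6.50 ± 0.62 in SEZ_CD24 (n = 2 each) and 7.07 ± 0.43 in DIEC_GFP (n = 4). Within SEZ_GFPprom replicate 2 was low at 6.29 beside 7.89 to 8.23 for the others. Both SEZ_GFP arrays lay above those of SEZ_Prom and SEZ_CD24, pairs of groups that were apart for 46.3% and 35.8% of all probe sets. The other pairs of groups overlapped with 1424112_at. The other Igf2r probe set, 1424111_at, correlated with it at r = 0.42 and averaged 5.40 ± 0.15 in SEZ_GFPprom (n = 4), 5.21 ± 0.06 in SEZ_GFP, 4.43 ± 0.74 in SEZ_Prom, 5.31 ± 0.43 in SEZ_CD24 (n = 2 each) and 5.37 ± 0.23 in DIEC_GFP (n = 4). Here SEZ_Prom lay below every other group, with differences that missed the threshold, among them -0.94 (SE 0.28) for SEZ_Prom minus DIEC_GFP (adjusted p = 0.103).

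**Figure D2:**
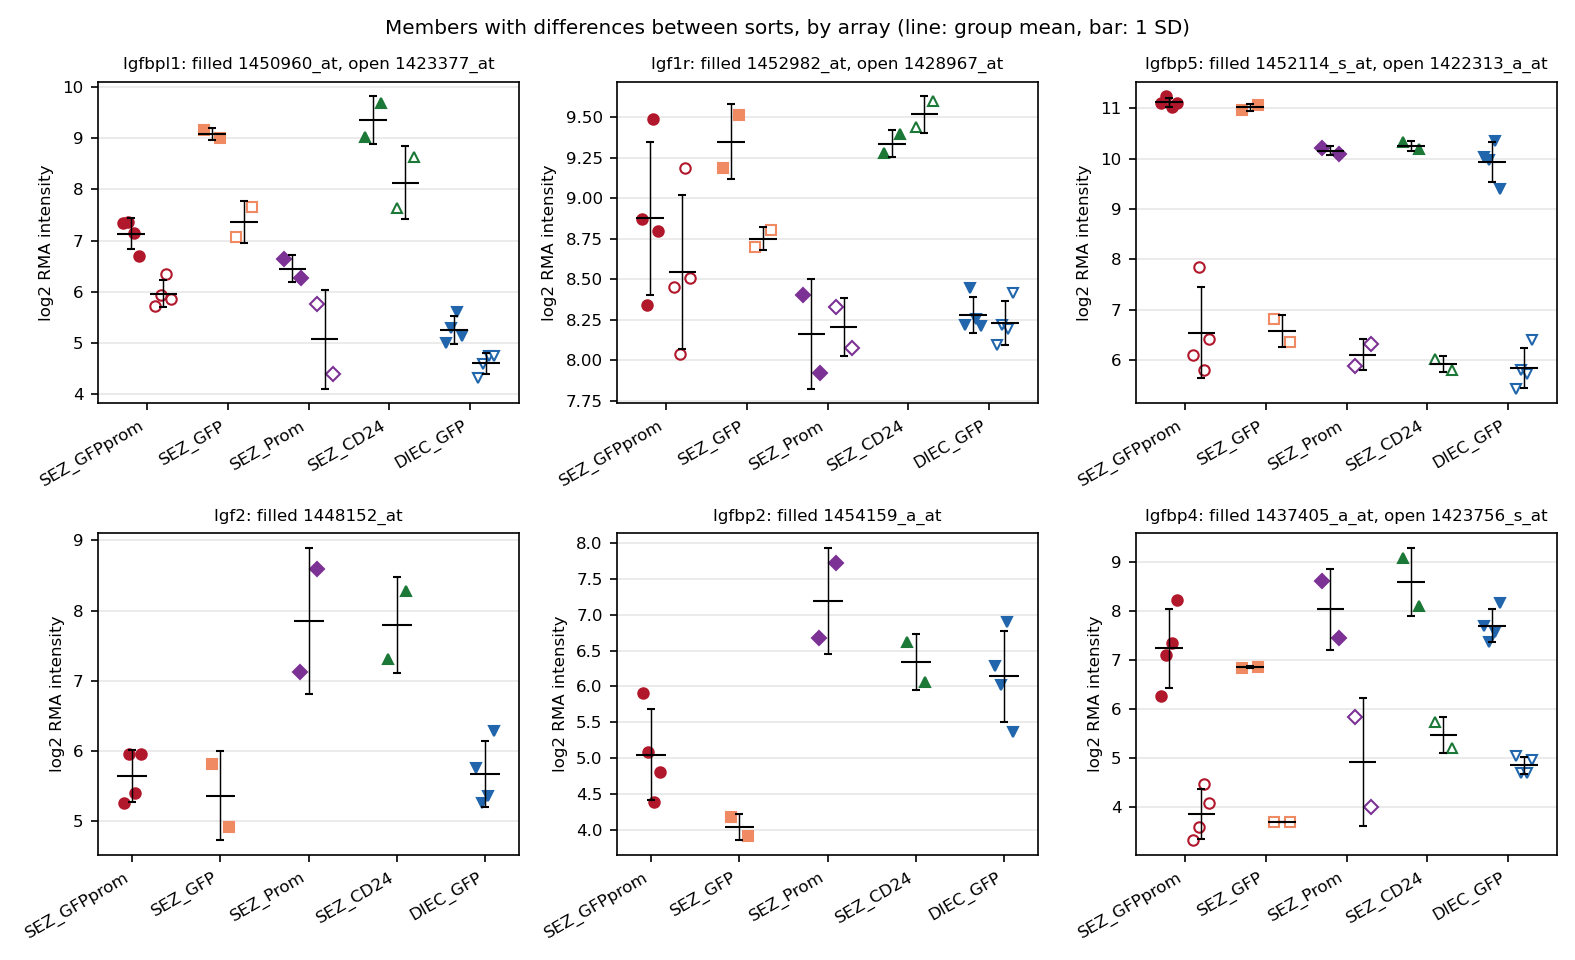
Log2 intensity (vertical axis) on each array, by sort (horizontal axis), for the probe sets of Igfbpl1, Igf1r, Igfbp5, Igf2, Igfbp2 and Igfbp4; points are arrays, lines group means and bars 1 SD. Igfbpl1 is at its highest in SEZ_GFP and SEZ_CD24, Igf2 in SEZ_Prom and SEZ_CD24, and Igfbp5 1452114_s_at in both GFP sorts of the subependymal zone.

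Among the binding proteins, Igfbp5 was higher in the 2 GFP sorts of the subependymal zone than in the GFP sort of the diencephalon. Igfbp5 encodes a secreted protein that binds IGFs and the extracellular matrix. Probe set 1452114_s_at read 11.11, 11.24, 11.03 and 11.10 in SEZ_GFPprom and 10.97 and 11.07 in SEZ_GFP. It read 10.22 and 10.10 in SEZ_Prom, 10.33 and 10.19 in SEZ_CD24, and 10.04, 9.97, 10.35 and 9.40 in DIEC_GFP. The 6 arrays of the GFP-sorted subependymal cells lay above the other 8, with no overlap.

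SEZ_GFPprom minus DIEC_GFP was 1.18 (SE 0.18, 2.27-fold, adjusted p = 0.00211), a call that held under every alternative and without each array. SEZ_GFP minus DIEC_GFP was 1.08 (SE 0.22, adjusted p = 0.0107) and ended without SEZ_GFP replicate 1 or 2 (0.0692 to 0.116). SEZ_GFPprom was also higher than SEZ_Prom (0.96, adjusted p = 0.0334) and than SEZ_CD24 (0.87, adjusted p = 0.0305). The SEZ_Prom call ended without any 1 of 8 arrays (0.052 to 0.209), all those of SEZ_GFPprom, SEZ_GFP and SEZ_Prom, and the SEZ_CD24 call without any 1 of 5 (0.0541 to 0.185), both of SEZ_CD24 and SEZ_GFPprom replicates 1, 2 and 4. The SEZ_GFP call also ended in a fit of the 2 groups alone (0.107), the SEZ_Prom call with the replicate block and the 3' to 5' covariate (0.0657 to 0.0922), and the SEZ_CD24 call with the replicate block (0.0515). SEZ_GFPprom minus SEZ_GFP was 0.10 (SE 0.22, adjusted p = 0.922), and SEZ_GFP minus SEZ_Prom at 0.87 missed the threshold (adjusted p = 0.0828). The second Igfbp5 probe set, 1422313_a_at, passed in no comparison, ran between 5.43 and 7.85 and correlated with 1452114_s_at at r = 0.47.

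Cell cycle markers moved with Igfbp5, with Igfbpl1 and with Igf1r, at r = 0.70, 0.85 and 0.73 over the 14 arrays. For the 11 of 12 listed markers measured, the summed intensity was 4975 to 8786 in SEZ_GFPprom, 10892 to 12123 in SEZ_GFP, 2574 to 2603 in SEZ_Prom, 5508 to 7503 in SEZ_CD24 and 611 to 1212 in DIEC_GFP. In SEZ_GFPprom minus DIEC_GFP 10 of the 11 were higher and 0 lower, and in SEZ_GFP minus DIEC_GFP 11 were higher, against 15.6% and 11% of all genes called. The proliferation marker gene Mki67 stood at 10.05 to 10.86 in SEZ_GFPprom, 10.97 and 11.51 in SEZ_GFP and 7.97 and 8.86 in SEZ_Prom. It stood at 10.65 and 10.81 in SEZ_CD24 and 4.46 to 7.24 in DIEC_GFP. Igfbp5 1452114_s_at averaged 10.26 in SEZ_CD24, beside 11.12 in SEZ_GFPprom and 11.02 in SEZ_GFP. The part of dividing cells in these members' differences was not tested.

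Igfbp2 followed another order: it was lowest in SEZ_GFP. It encodes a secreted IGF-binding protein of glia and choroid plexus. Its probe set 1454159_a_at read 5.91, 5.09, 4.39 and 4.81 in SEZ_GFPprom and 4.17 and 3.91 in SEZ_GFP. It read 6.67 and 7.72 in SEZ_Prom, 6.61 and 6.07 in SEZ_CD24, and 6.29, 6.02, 6.89 and 5.36 in DIEC_GFP. Both SEZ_GFP arrays lay below all others, and SEZ_GFPprom overlapped with DIEC_GFP at 1 end.

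SEZ_GFP was 4.29-fold lower than DIEC_GFP (-2.10, SE 0.47, adjusted p = 0.0196) and 8.93-fold lower than SEZ_Prom (-3.16, SE 0.55, adjusted p = 0.0131). SEZ_GFPprom was 4.43-fold lower than SEZ_Prom (-2.15, SE 0.47, adjusted p = 0.0309), while SEZ_GFPprom minus DIEC_GFP at -1.09 (SE 0.39) missed the threshold (adjusted p = 0.093). The calls with SEZ_GFP ended without either SEZ_GFP array, the one against SEZ_Prom also without SEZ_Prom replicate 2 (0.098 to 0.174 against DIEC_GFP, 0.0571 to 0.111 against SEZ_Prom). The SEZ_GFPprom call ended without any 1 of 5 arrays (0.0571 to 0.27), both of SEZ_Prom and SEZ_GFPprom replicates 2, 3 and 4. All 3 Igfbp2 calls ended in fits of the 2 groups alone and 2 of them, SEZ_GFP minus DIEC_GFP and SEZ_GFPprom minus SEZ_Prom, with the 3' to 5' covariate, the last also with the replicate block and with intensities under 10 set to 10 (0.0557 to 0.161 over these). Igfbp2 correlated with choroid plexus markers, whose levels are given above, at r = 0.72 over the 14 arrays, and their part was not tested.

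Igfbp2 and Igfbp5 are neighbours on chromosome 1 of the mouse (GRCm38.p6 assembly of RefSeq). Igfbp2 spans chr1:72824480-72852474 on the plus strand and Igfbp5 chr1:72858065-72874865 on the minus strand, with 5590 bases and 0 protein-coding genes between them. In SEZ_GFP minus DIEC_GFP these neighbours moved in opposite directions, -2.10 for Igfbp2 and 1.08 for Igfbp5, so their promoters are shown side by side. Each covers 300 bases, 250 before the gene's annotated start and 50 after it, read on the gene's own strand from RefSeq, at chr1:72824230-72824529 for Igfbp2 and chr1:72874816-72875115 for Igfbp5. Capitals mark matches on either strand to the GC box GGGCGG, the TATA sequence TATAAA and the E-box CANNTG, and no matches share bases in these windows.
Igfbp2: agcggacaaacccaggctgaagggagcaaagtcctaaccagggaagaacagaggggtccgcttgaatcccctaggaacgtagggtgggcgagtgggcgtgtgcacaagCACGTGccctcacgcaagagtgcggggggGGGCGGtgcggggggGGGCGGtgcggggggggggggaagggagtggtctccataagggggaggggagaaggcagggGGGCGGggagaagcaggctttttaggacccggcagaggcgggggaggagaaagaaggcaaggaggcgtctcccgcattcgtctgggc
Igfbp5: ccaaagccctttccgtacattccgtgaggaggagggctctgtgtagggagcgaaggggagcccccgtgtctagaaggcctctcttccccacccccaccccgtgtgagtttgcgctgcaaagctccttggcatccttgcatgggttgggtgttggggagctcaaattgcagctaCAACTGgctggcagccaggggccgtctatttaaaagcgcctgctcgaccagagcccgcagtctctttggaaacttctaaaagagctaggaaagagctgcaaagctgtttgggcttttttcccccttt
The Igfbp2 window holds 3 GC boxes, 0 TATA sequences and 1 E-box and is 67.0% G or C. The Igfbp5 window holds 0 GC boxes, 0 TATA sequences and 1 E-box and is 56.3% G or C. Of all 32851 promoter windows of the same length 35.7% hold a GC box, 13.6% the TATA sequence and 72.3% an E-box, and the median window is 52.7% G or C. These are letter matches and were not measured as sites. Igfbp2 has a second annotated start with its own window, which is not shown.

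Igfbp3, Igfbp4 and Igfbp7 gave few or no calls. Igfbp3 probe set 1423062_at read 2.81, 3.17, 3.32 and 2.81 in SEZ_GFPprom, against 5.59, 4.75, 5.81 and 3.17 in DIEC_GFP. The groups overlapped through DIEC_GFP replicate 4, and 9 of the 14 arrays stood at an intensity of 10 or less. The difference of -1.80 (SE 0.48) passed (adjusted p = 0.0337) but ended under 3 other settings (0.0609 to 0.484), the floor of 10, the fit of the 2 groups alone and the covariate, and without any 1 of 7 arrays, all but DIEC_GFP replicate 4 among those of the 2 groups (0.0537 to 0.089). With 1423062_at the means of SEZ_GFP (-2.08, adjusted p = 0.0556), SEZ_CD24 (-1.54, adjusted p = 0.137) and SEZ_Prom (-1.32, adjusted p = 0.307) also lay below DIEC_GFP. These differences missed the threshold. The other Igfbp3 probe set, 1458268_s_at, passed in no comparison.

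Igfbp4 encodes a binding protein known to inhibit IGF action until it is cleaved by the protease Pappa. Its brightest probe set, 1437405_a_at, averaged 7.23 ± 0.81 in SEZ_GFPprom (SD, n = 4), 6.85 ± 0.02 in SEZ_GFP, 8.03 ± 0.82 in SEZ_Prom, 8.59 ± 0.69 in SEZ_CD24 (n = 2 each) and 7.69 ± 0.34 in DIEC_GFP (n = 4), and passed in no comparison. Of its 6 probe sets only 1423756_s_at gave a call, SEZ_GFPprom minus SEZ_CD24 at -1.61 (SE 0.44, adjusted p = 0.0418). That call ended without any 1 of 11 arrays (0.0513 to 0.213), all but SEZ_GFPprom replicate 3 and the 2 of SEZ_Prom, and under 5 other settings (0.0582 to 0.0871). Igfbp4 1437405_a_at correlated with microglia markers at r = 0.76; the 11 of 12 measured had a summed intensity of 2387 to 4689 in SEZ_GFPprom, 1118 to 1449 in SEZ_GFP, 6289 to 9017 in SEZ_Prom, 14712 to 29799 in SEZ_CD24 and 3087 to 13304 in DIEC_GFP, and their part was not tested.

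Igfbp7, a secreted protein with weaker affinity for IGFs that is known from brain vessels, had no call. Its probe set 1437804_at ran between 5.52 and 6.46 over all 14 arrays, 1423584_at between 4.64 and 6.49 and 1423585_at between 3.00 and 3.70. With 1423584_at the SEZ_GFP arrays lay below those of SEZ_GFPprom, SEZ_Prom and SEZ_CD24. These pairs of groups were apart for 21.5%, 46.3% and 35.8% of all probe sets. The DIEC_GFP arrays lay below those of SEZ_GFPprom and SEZ_Prom, pairs apart for 15.4% and 21.8% of all probe sets. SEZ_GFPprom minus SEZ_GFP (1.04, SE 0.31, adjusted p = 0.143) and SEZ_GFP minus SEZ_Prom (-1.11, SE 0.35, adjusted p = 0.111) missed the threshold. Endothelial markers had array means of 4.20 to 5.05, with Pecam1 at 2.58 to 3.46 and Cdh5 at 2.58 to 3.46. The endothelial junction gene Cldn5 ran between 4.17 and 7.0, with 6.94 on SEZ_GFPprom replicate 2, 5.98 on SEZ_GFPprom replicate 4 and 7.0 on DIEC_GFP replicate 4. Markers of mural cells, the other vessel list, had array means of 4.249 to 5.705. Rgs5 ran between 3.70 and 6.69, Pdgfrb between 5.29 and 9.08 and Acta2 between 4.91 and 10.80, highest in SEZ_GFPprom (9.255 to 10.80). Igfbp7 1437804_at correlated with mural, endothelial and oligodendrocyte markers at r = 0.71, 0.42 and 0.73. The part of these cells was not tested.

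Igfbpl1 differed most among the sorts of all members by the F test (1450960_at, adjusted p = 2.7e-05; 1423377_at, adjusted p = 0.000562). It encodes a secreted protein related to the IGF-binding proteins and is known from developing neurons. Probe set 1450960_at read 7.34, 7.37, 7.14 and 6.70 in SEZ_GFPprom and 9.16 and 9.0 in SEZ_GFP. It read 6.64 and 6.27 in SEZ_Prom, 9.03 and 9.68 in SEZ_CD24, and 5.0, 5.29, 5.61 and 5.13 in DIEC_GFP. Only SEZ_GFP and SEZ_CD24 overlapped; every other pair of groups was apart, in the order SEZ_CD24, SEZ_GFP, SEZ_GFPprom, SEZ_Prom and DIEC_GFP.

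Relative to DIEC_GFP, Igfbpl1 was 17.1-fold higher in SEZ_CD24 (4.10, SE 0.26, adjusted p = 2.37e-05), 14.1-fold in SEZ_GFP (3.82, SE 0.26, adjusted p = 4.27e-05), 3.68-fold in SEZ_GFPprom (1.88, SE 0.21, adjusted p = 0.0004) and 2.29-fold in SEZ_Prom (1.20, SE 0.26, adjusted p = 0.0269). The first 3 of these held under every alternative and without each array. The SEZ_Prom call ended without any 1 of 5 arrays (0.0523 to 0.251), both of SEZ_Prom and DIEC_GFP replicates 1, 2 and 4, and under 4 other settings, namely the fit of the 2 groups alone, the replicate block, the trend and robust prior and the 3' to 5' covariate (0.0525 to 0.16). Among the subependymal sorts, SEZ_GFPprom was lower than SEZ_GFP (-1.94, adjusted p = 0.00242) and than SEZ_CD24 (-2.22, adjusted p = 0.000514). SEZ_GFP was higher than SEZ_Prom (2.62, adjusted p = 0.00253) and SEZ_Prom lower than SEZ_CD24 (-2.90, adjusted p = 0.0026), both of which ended in a fit of those 2 groups alone (0.074 and 0.17). Neighbours in the order that did not differ past the threshold were SEZ_GFP and SEZ_CD24 (-0.28, SE 0.30, adjusted p = 0.85) and SEZ_GFPprom and SEZ_Prom (0.68, SE 0.26, adjusted p = 0.194).

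The second Igfbpl1 probe set, 1423377_at, correlated with the first at r = 0.96 and gave the same order. It averaged 5.96 ± 0.26 in SEZ_GFPprom (SD, n = 4), 7.36 ± 0.41 in SEZ_GFP, 5.07 ± 0.96 in SEZ_Prom, 8.13 ± 0.71 in SEZ_CD24 (n = 2 each) and 4.60 ± 0.20 in DIEC_GFP (n = 4). It passed in 6 comparisons, all of them also called by 1450960_at, with 3.53 for SEZ_CD24 minus DIEC_GFP (adjusted p = 0.000257) and 2.75 for SEZ_GFP minus DIEC_GFP (adjusted p = 0.00138). SEZ_GFPprom minus SEZ_CD24 (-2.17, adjusted p = 0.00548) ended without SEZ_CD24 replicate 2 (0.0743), and SEZ_GFP minus SEZ_Prom (2.29, adjusted p = 0.0183) without SEZ_GFP replicate 1 or 2 or SEZ_Prom replicate 2 (0.0537 to 0.164). With this probe set SEZ_GFPprom minus SEZ_GFP (-1.39, adjusted p = 0.109) and SEZ_Prom minus DIEC_GFP (0.47, adjusted p = 0.627) missed the threshold. SEZ_GFPprom minus DIEC_GFP (1.36, adjusted p = 0.0158) ended with each array's 3' to 5' ratio added as a covariate (0.0535). SEZ_Prom minus SEZ_CD24 (-3.06, adjusted p = 0.00755) ended with that covariate and in a fit of the 2 groups alone (0.068 to 0.226). A fit of the 2 groups alone also ended SEZ_GFP minus SEZ_Prom (0.199).

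Neuroblast markers moved with Igfbpl1. For the 11 of 12 listed markers measured, the summed intensity was 15953 to 20624 in SEZ_GFPprom, 34184 to 39491 in SEZ_GFP, 12335 to 15543 in SEZ_Prom, 33231 to 50847 in SEZ_CD24 and 9060 to 11552 in DIEC_GFP. In SEZ_GFP minus DIEC_GFP 10 of the 11 were higher and 0 lower, against 11% of all genes called, and in SEZ_CD24 minus DIEC_GFP 10 were higher and 0 lower. Igfbpl1 and the markers' mean correlated at r = 0.97 over the 14 arrays. None of the defining markers was near the floor in the subependymal sorts: the neuroblast gene Dcx stood at 9.50 to 10.35 in SEZ_GFPprom, 11.71 to 11.76 in SEZ_GFP, 7.62 to 9.21 in SEZ_Prom and 11.49 to 12.46 in SEZ_CD24, against 5.43 to 6.67 in DIEC_GFP. Sox11 stood at 9.53 to 12.08 and Dlx1 at 8.21 to 11.96 in the subependymal sorts, against 6.38 to 7.41 and 2.81 to 5.49 in DIEC_GFP. The part of neuroblast RNA in the Igfbpl1 differences was not tested.

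**Figure D3:**
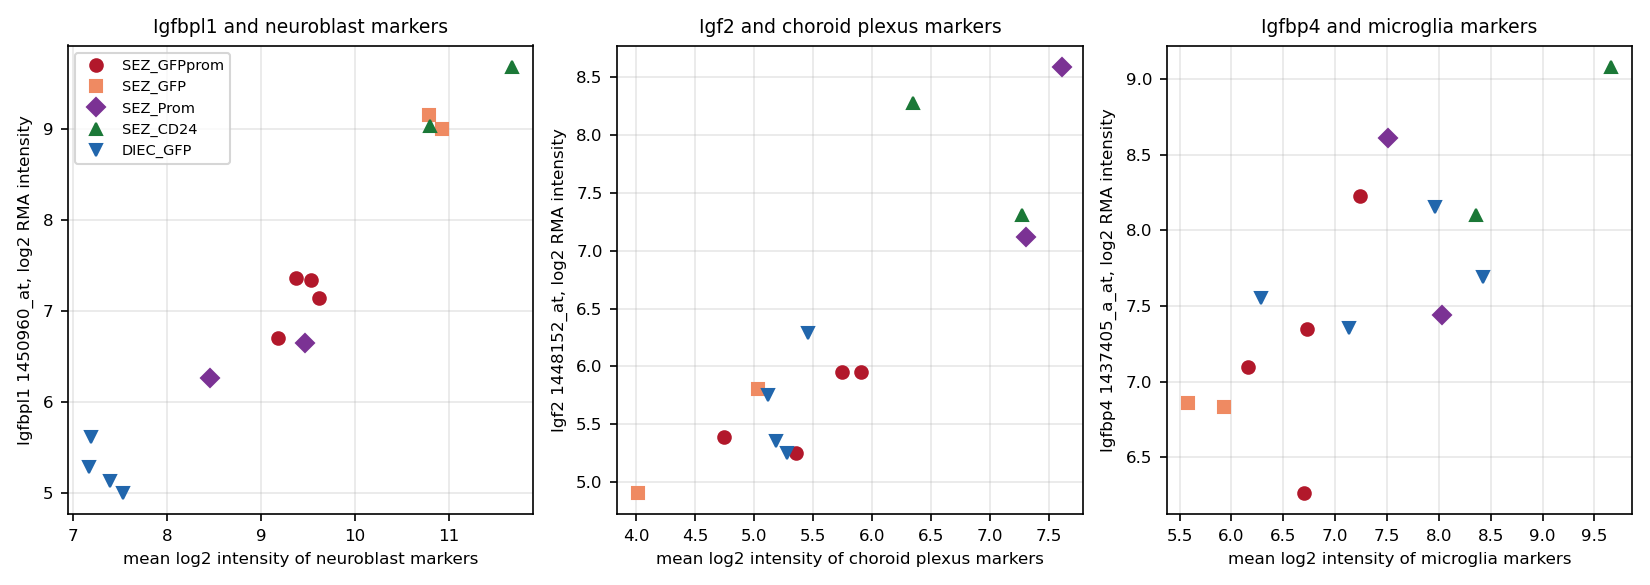
Log2 intensity of Igfbpl1, Igf2 and Igfbp4 (vertical axes) against the mean log2 intensity of neuroblast, choroid plexus and microglia markers (horizontal axes); each point is 1 of the 14 arrays. The correlations are 0.97, 0.87 and 0.76, and the arrays of a sort lie close together for Igfbpl1 and spread for Igfbp4.

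By comparison, the members called were as follows in each pair of sorts. SEZ_GFPprom minus DIEC_GFP called 4 of 29 (13.8%, 3 higher and 1 lower), against 12% of all probe sets. SEZ_GFP minus DIEC_GFP called 6 (20.7%, 5 higher and 1 lower), against 7.9%. SEZ_Prom minus DIEC_GFP called 2 (6.90%, both higher), against 3.5%, and SEZ_CD24 minus DIEC_GFP called 5 (17.2%, all higher), against 10.8%. The median member difference in these 4 comparisons was 0.09, -0.16, 0.13 and 0.20, beside 0.05, 0.01, 0.02 and 0.01 over all probe sets. These comparisons share the DIEC_GFP arrays. The 13.8% in SEZ_GFPprom minus DIEC_GFP lay near its background of 12%, and since the 29 probe sets share 10 genes, probe sets of a gene count together in each share.

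Within the subependymal zone SEZ_GFPprom minus SEZ_GFP called 1 member probe set (3.45%, lower, Igfbpl1), against 1.69%. SEZ_GFPprom minus SEZ_Prom called 3 (10.3%, 1 higher and 2 lower), against 3.67%, and SEZ_GFPprom minus SEZ_CD24 called 6 (20.7%, 1 higher and 5 lower), against 9.39%. SEZ_GFP minus SEZ_Prom called 4 (13.8%, 2 in each direction), against 3.86%, and SEZ_Prom minus SEZ_CD24 called 3 (10.3%, all lower), against 3.22%. SEZ_GFP minus SEZ_CD24 called 0 with limma, against 0.371%. Of the 34 called differences in all, 8 held under every alternative and without each array, 7 of them for Igfbpl1 and 1 for Igfbp5, and 0 changed sign. With the SEZ_CD24 arrays left out, the counts were 4, 5 and 2 for SEZ_GFPprom, SEZ_GFP and SEZ_Prom minus DIEC_GFP. They were 1, 3 and 4 for SEZ_GFPprom minus SEZ_GFP, SEZ_GFPprom minus SEZ_Prom and SEZ_GFP minus SEZ_Prom. The share of all probe sets called was not counted in that setting.

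**Figure D4:**
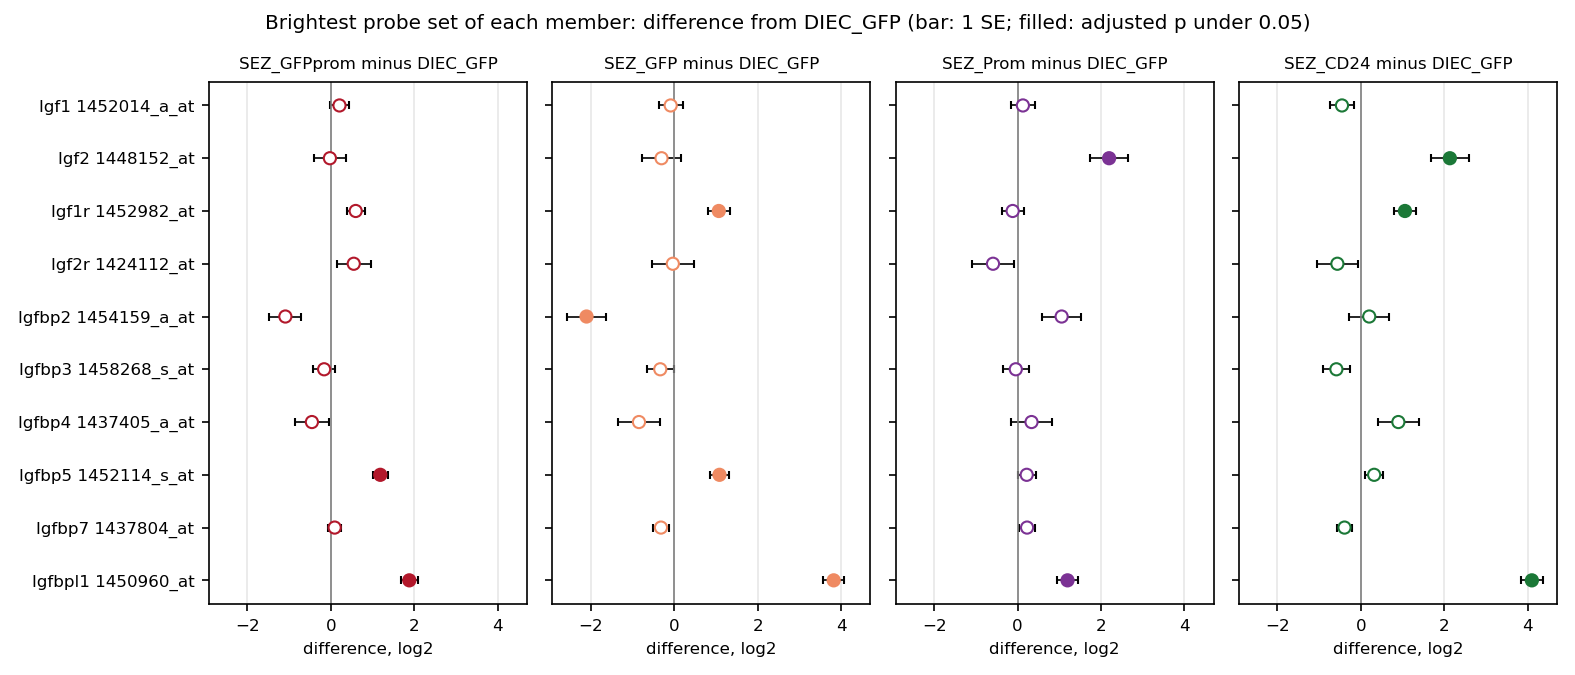
Log2 difference from DIEC_GFP (horizontal axis) of the brightest probe set of each of the 10 members (rows) in the 4 subependymal sorts (panels); bars are 1 SE and filled points have an adjusted p under 0.05. Igfbpl1 is right of 0 and filled in all 4 panels, Igfbp5 in the SEZ_GFPprom and SEZ_GFP panels, and Igf2 in the SEZ_Prom and SEZ_CD24 panels.

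The wider pathway was read from gene lists by each gene's brightest probe set, for which 22.6% of all genes passed the F test. Of 13 further IGF-binding, carrier and protease genes 4 passed. Htra1, a secreted protease known to cleave IGF-binding proteins, averaged 11.59 ± 0.24 in SEZ_GFPprom, 9.63 ± 1.35 in SEZ_CD24 and 12.83 ± 0.29 in DIEC_GFP (SD, n = 4, 2 and 4), and was lower in SEZ_CD24 than in DIEC_GFP (-3.20, adjusted p = 0.000713) and in SEZ_GFPprom than in DIEC_GFP (-1.24, adjusted p = 0.034). Ctsd, a lysosomal protease, was lower in SEZ_GFPprom than in DIEC_GFP (-1.21, adjusted p = 0.0208). Stc1, a secreted inhibitor of Pappa proteases, was higher in SEZ_GFP than in DIEC_GFP (2.26, adjusted p = 0.0223), and the matrix protein gene Ccn1 was higher in SEZ_GFPprom than in SEZ_CD24 (3.85, adjusted p = 0.0122). In SEZ_GFPprom minus DIEC_GFP 1 of the 13 was higher and 2 lower (15.6% of all genes called), with a median of 0.32 beside 0.08 over all genes.

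Of 14 insulin and IGF receptor adaptors 4 passed the F test. Grb14, an adaptor that inhibits the insulin receptor, averaged 7.62 ± 0.20 in SEZ_GFPprom (SD, n = 4), 5.78 ± 1.03 in SEZ_GFP, 9.05 ± 0.17 in SEZ_Prom, 5.27 ± 0.97 in SEZ_CD24 (n = 2 each) and 9.39 ± 0.53 in DIEC_GFP (n = 4). It was lower than in DIEC_GFP in SEZ_CD24 (-4.12, adjusted p = 0.000322), in SEZ_GFP (-3.62, adjusted p = 0.000937) and in SEZ_GFPprom (-1.78, adjusted p = 0.0116). Socs2, a feedback inhibitor of growth hormone and IGF signalling, ran the other way, higher than in DIEC_GFP in both SEZ_CD24 (2.03, adjusted p = 0.00372) and SEZ_GFP (1.61, adjusted p = 0.0167), and lower in SEZ_Prom than in SEZ_CD24 (-3.07, adjusted p = 0.00534). The docking protein gene Gab1 was lower in SEZ_GFP (-1.69, adjusted p = 0.0055) and SEZ_CD24 (-1.75, adjusted p = 0.00335) than in DIEC_GFP, and Ptpn1, a phosphatase of the insulin receptor, was higher in SEZ_CD24 than in DIEC_GFP (1.17, adjusted p = 0.00543). The insulin receptor gene Insr did not pass the F test (adjusted p = 0.0941). In SEZ_GFPprom minus DIEC_GFP 0 of the 14 were higher and 1 lower (15.6% of all genes called), and in SEZ_CD24 minus DIEC_GFP 2 were higher and 2 lower (14.8%).

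Of 21 measured PI3K, AKT, mTOR and FOXO genes 6 passed the F test. Eif4ebp1, a repressor of translation held off by mTOR, was higher than in DIEC_GFP in SEZ_GFPprom (2.45, adjusted p = 0.00169) and SEZ_GFP (2.82, adjusted p = 0.00266), with 7.26 ± 0.61 in SEZ_GFPprom, 7.63 ± 0.66 in SEZ_GFP and 4.81 ± 0.47 in DIEC_GFP (SD, n = 4, 2 and 4). The transcription factor gene Foxo3 was higher in SEZ_GFPprom than in DIEC_GFP (0.76, adjusted p = 0.0179) and in SEZ_CD24 than in DIEC_GFP (1.07, adjusted p = 0.0084), and the kinase gene Akt1 was higher in SEZ_CD24 than in DIEC_GFP (1.43, adjusted p = 0.0146). Pik3ca, a catalytic subunit of PI3K, was lower in SEZ_GFPprom than in SEZ_CD24 (-1.41, adjusted p = 0.00737), and the kinase gene Pdpk1 lower in SEZ_GFP than in SEZ_Prom (-2.20, adjusted p = 0.0198). In SEZ_GFPprom minus DIEC_GFP 3 of the 21 were higher and 0 lower (15.6% of all genes called), and their median was 0.08, as over all genes.

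Of 8 measured genes of IGF2 mRNA binding and lysosomal sorting 1 passed, the sorting receptor gene Sort1, lower than in DIEC_GFP in SEZ_GFPprom (-0.70, adjusted p = 0.0277), SEZ_GFP (-1.16, adjusted p = 0.00774) and SEZ_CD24 (-1.10, adjusted p = 0.00794). Of 11 measured imprinted genes, a class to which Igf2 and Igf2r belong, 3 passed. Gatm, which encodes an enzyme of creatine synthesis, was lower in SEZ_GFPprom than in DIEC_GFP (-3.23, adjusted p = 0.00151); the noncoding gene Meg3 was higher in SEZ_GFP than in DIEC_GFP (1.88, adjusted p = 0.0302); and the cell cycle inhibitor gene Cdkn1c was lower in SEZ_GFPprom than in DIEC_GFP (-1.53, adjusted p = 0.0279). Grb10, imprinted and an adaptor of both receptors, did not pass (F test, adjusted p = 0.452). Of 8 growth hormone axis genes 2 passed: the growth hormone receptor gene Ghr was lower in SEZ_CD24 than in DIEC_GFP (-4.33, adjusted p = 0.00954), and the feedback inhibitor gene Cish was higher in SEZ_CD24 (1.97, adjusted p = 0.0009) and SEZ_GFPprom (0.83, adjusted p = 0.0306) than in DIEC_GFP. In SEZ_GFPprom minus SEZ_GFP 0 genes of these 6 lists passed, against 2.57% of all genes. Of the 60 called differences between sorts of the pathway genes that passed the F test, 10 held without each array: SEZ_CD24 minus DIEC_GFP for Htra1, Grb14, Gab1 and Cish, SEZ_GFP minus DIEC_GFP for Grb14 and Eif4ebp1, SEZ_GFPprom minus DIEC_GFP for Grb14, Eif4ebp1 and Gatm, and SEZ_Prom minus SEZ_CD24 for Socs2. With the other alternatives 8 of these 10 still held; Eif4ebp1 in SEZ_GFP minus DIEC_GFP ended once the 3' to 5' covariate was added, and Socs2 under that setting or in a fit of the 2 groups alone. Every other of the 60 ended without any 1 of between 1 and 12 arrays, and 0 changed sign.

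For each member the genes most like it were sought among 15646 genes by Pearson correlation over the 14 arrays, given as a description; arrays of a sort share their cells. Igfbpl1 was most like Tiam2 (r = 0.98), Plxna2 (0.97) and Vax1 (0.97). Igf2 was most like Kcne2 (0.93), Kcnj13 (0.89) and Rnf10 (0.88), of which the first 2 are in the choroid plexus list. Igf1r was most like Vash2, Gm11346 and Tsn (0.92 each), Igfbp5 like Trim37 (0.93), Sarnp (0.92) and Fkbp3 (0.91), and Igfbp2 like Ets2 (0.92), Tpst2 (0.88) and Wdr1 (0.88). The members with no probe set past the F test also had close matches, such as Ngef for Igfbp7 (0.93), Uqcc1 for Igf1 (0.91), Atpsckmt for Igf2r (0.89), Slit3 for Igfbp3 (0.85) and Ace for Igfbp4 (0.85).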

How the data were processed

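RNA of sorted cells was purified on columns (RNeasy, with DNase), amplified by the 2-cycle MessageAmp procedure and hybridised to Affymetrix MOE430 2.0 arrays, per the labels' protocols. The deposited values are linear intensity values made with RMA, per the submitters' processing notes; they are rounded to whole numbers, and the log2 of each deposited intensity was taken with no pseudocount (lowest value 3). Of 45101 probe sets 64 were controls and 45037 were tested; 34945 had 1 gene symbol and 932 several, and 1 probe set that names Igf2r beside another gene was left out of the members.

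One fit with limma 3.58.1 in R 4.3.3 (lmFit, contrasts.fit, eBayes) held all 14 arrays, with 5 group means as its only terms and with 9 residual and 2.30 prior degrees of freedom. The 10 comparisons and the F test were two-sided where a direction applies, with Benjamini-Hochberg adjustment over all probe sets within each. Pathway and marker lists used the brightest probe set of each of 18193 genes and were described by counts and medians. Named were all member probe sets, up to 5 genes a pathway list by F test, genes shared by lists, defining markers and the 3 genes most correlated with each member (mean intensity of at least 10). The members and lists were chosen with earlier results of these data known. Some list genes were not analysed here.

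The alternatives were quantile normalization, equal medians, a floor of 10, leaving out the dimmer 50% of probe sets, 1 probe set per gene, fits of the 2 groups compared, a replicate block, array weights, a trend and robust prior, a 3' to 5' ratio covariate and leaving out each array; leaving out the SEZ_CD24 arrays was added after seeing the data. Replicate numbers were not used to pair the samples in the main fit. Promoters came from RefSeq tables and matched 9 of 10 members.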

Additional observations from a re-analysis of the deposited data

Results flagged for a closer look

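In groups of 4 arrays, a value was singled out where its gap to the nearest other array, divided by the range of the group, passed Dixon's 95% critical value for 4 values. Of 58 member probe sets and groups tested 8 did so. The critical value is set for about 1 in 20 among independent and continuous values. Rounded intensities near the floor and probe sets that share genes and arrays are not such values. An excess can therefore not be read from this count.

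Igf1 had 3 of them. Probe set 1434413_at stood at 4.46 on SEZ_GFPprom replicate 4, with the other 3 arrays at 3.32 to 3.46. Probe set 1419519_at stood at 4.39 on SEZ_GFPprom replicate 1 (others 2.58 to 2.81) and at 3.17 on DIEC_GFP replicate 1 (others 2.81); it was at an intensity of 10 or less on 13 of 14 arrays.

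Igf1r had 3. Probe set 1446303_at stood at 5.78 on SEZ_GFPprom replicate 2 (others 6.52 to 6.66) and at 3.91 on DIEC_GFP replicate 3 (others 6.02 to 6.29), and 1426565_at at 5.55 on DIEC_GFP replicate 2 (others 6.71 to 6.83). Without DIEC_GFP replicate 3 the 1446303_at difference between SEZ_GFP and DIEC_GFP, 2.04 with all arrays, was 1.49.

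Igfbp3 1458268_s_at stood at 4.70 on DIEC_GFP replicate 1 (others 3.70 to 3.81). Igfbp4 1437406_x_at stood at 7.13 on SEZ_GFPprom replicate 4 (others 6.51 to 6.60). The 8 values fell on 6 different arrays.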

How the results depend on the processing

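No member difference that passed changed sign under any alternative. Of 105 counts of called members under alternatives that leave out no single array, 91 lay within 1.5 times the count reported and 14 beyond. The share of all probe sets called was counted in the main fit only. The counts below therefore cannot show whether members moved more than probe sets in general. With the 3' to 5' ratio as a covariate the counts were 2 for SEZ_GFPprom minus DIEC_GFP, 0 for SEZ_GFPprom minus SEZ_Prom, 3 for SEZ_GFP minus DIEC_GFP, 0 for SEZ_Prom minus DIEC_GFP and 1 for SEZ_Prom minus SEZ_CD24; the log2 ratio itself was 4.58 to 5.35 in the subependymal sorts and 5.04 to 5.74 in DIEC_GFP. With array weights they were 2 for SEZ_GFPprom minus SEZ_GFP and 8 for SEZ_GFP minus SEZ_Prom. In fits of the 2 groups alone they were 1 for SEZ_GFPprom minus SEZ_Prom and 0 for SEZ_Prom minus DIEC_GFP, SEZ_GFP minus SEZ_Prom and SEZ_Prom minus SEZ_CD24, with fewer samples behind the spread. With the replicate number as a block they were 0 for SEZ_GFPprom minus SEZ_Prom and 0 for SEZ_Prom minus DIEC_GFP. Of 22 same-numbered pairs of arrays 3 correlated above 0.1 in their deviations from the group means (-0.153 to 0.117). In groups of 2 arrays the deviations mirror each other, so some of these values repeat. Such correlations cannot exclude that same-numbered samples share animals or a sorting day, of which the labels say nothing. With the trend and robust prior SEZ_Prom minus DIEC_GFP gave 1. Of the 34 called member differences 20 remained with the covariate, 17 in fits of the 2 groups alone, 24 with the replicate block, 28 with intensities under 10 set to 10, 31 with the trend and robust prior, 32 with array weights and all 34 with quantile normalization and with equal medians. The cause of these moves was otherwise not tested. Leaving out 1 array gave 3 to 5 calls for SEZ_GFPprom minus DIEC_GFP, 1 to 2 for SEZ_GFPprom minus SEZ_GFP, 1 to 4 for SEZ_GFPprom minus SEZ_Prom, 1 to 6 for SEZ_GFPprom minus SEZ_CD24, 2 to 6 for SEZ_GFP minus DIEC_GFP, 0 to 2 for SEZ_Prom minus DIEC_GFP, 2 to 5 for SEZ_CD24 minus DIEC_GFP, 1 to 5 for SEZ_GFP minus SEZ_Prom, 0 to 0 for SEZ_GFP minus SEZ_CD24, 2 to 4 for SEZ_Prom minus SEZ_CD24 and 5 to 9 in the F test; a lone array left in a group was assumed to vary like the others. One probe set per gene gives no count over all member probe sets. Of 1476 counts for the pathway and marker lists 1187 lay within 1.5 times. Dim probe sets, such as those of Igf1 and Igfbp3, and groups of 2 arrays limit what could be detected.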
